A study of Mus musculus with 6 samples.

Results

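Transcript levels of 9 marker genes of cholangiocytes, the epithelial cells that line the bile ducts, and of liver progenitor cells were compared between young and adult mouse liver. The markers were chosen by name as Krt19, Krt7, Krt23, Krt8, Krt18, Epcam, Spp1, Sox9 and Sox4, and each matched 1 of the 32597 genes of the authors' deposited table. All 9 were among the 16290 genes that the authors tested. The samples were livers of male wild type C57BL/6 mice, an inbred laboratory strain, bought from Harlan and kept free of specific pathogens. The labels disagree on the age of the young group: sample titles put it at 3 weeks, the age entry at 3 to 4 weeks and the series title at 1 month. The adult group was 6 months old. Each age had 3 libraries, and each library was made from a pool of RNA of 3 mice, mixed in equal parts, or 9 mice per age. The authors deposited 1 FPKM value (fragments per kilobase of transcript, scaled by the number of mapped fragments) per gene and age, so no value per library and no standard deviation can be given. A gene is said to have fallen or risen from young to adult where the authors' deposited table lists a q-value under 0.05 for it. That q-value rests on pools of mice, so the spread between single animals was not measured.

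Cholangiocytes make up a small part of the liver, and hepatocytes make up most of it. Both arise from a common embryonic progenitor, the hepatoblast, and Notch signals with the transcription factor Sox9 favour the biliary fate. Keratins are filament proteins that work as pairs of 1 type I and 1 type II chain. Hepatocytes carry the pair Krt18 (type I) and Krt8 (type II), while cholangiocytes carry these as well as Krt19 (type I) and Krt7 (type II), which is why Krt19 and Krt7 are used to stain bile ducts and ductular reactions. Mesothelium, the cell layer on the liver surface, also carries Krt19, Krt7, Krt8 and Krt18. In whole liver RNA, fewer cells of a type and less RNA per cell cannot be told apart.

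The 5 keratins lie in the type I cluster on chromosome 11 and the type II cluster on chromosome 15, on build GRCm38 in the positions of the authors' table. Krt23 spans 99477974 to 99493137 and Krt19 spans 100140810 to 100148665, both on the minus strand of chromosome 11. On chromosome 15, Krt7 spans 101411043 to 101430313 on the plus strand, Krt8 spans 101996711 to 102004342 on the minus strand and Krt18 spans 102028216 to 102032026 on the plus strand. Krt18 is the type I gene that sits beside its partner in the type II cluster, and 23873 bases separate the neighbouring ends of Krt8 and Krt18. RefSeq promoter windows of 300 bases (250 before to 50 after the start site, GRCm38.p6) were found for 7 of the 9 markers. Windows for Krt7 and Krt23, which fell with age as Krt19 did, and for the hepatocyte pair Krt8 and Krt18, which was not called, are shown so that the letters of both can be read side by side. The Krt7 window is chr15:101412153-101412452 on the plus strand, which lies inside the Krt7 span given above and not at its first base. The Krt23 window is chr11:99493071-99493370 on the minus strand, that of Krt8 is chr15:102004293-102004592 on the minus strand and that of Krt18 is chr15:102027966-102028265 on the plus strand. Each is written 5′ to 3′ along the gene, and capitals mark matches to any of 7 motifs searched on both strands.
Krt7: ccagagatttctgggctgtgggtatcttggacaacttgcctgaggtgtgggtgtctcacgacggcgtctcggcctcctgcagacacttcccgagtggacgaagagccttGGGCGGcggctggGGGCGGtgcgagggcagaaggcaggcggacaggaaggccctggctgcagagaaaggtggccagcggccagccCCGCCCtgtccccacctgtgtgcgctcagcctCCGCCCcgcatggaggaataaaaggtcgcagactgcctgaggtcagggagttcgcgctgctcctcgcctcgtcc
Krt23: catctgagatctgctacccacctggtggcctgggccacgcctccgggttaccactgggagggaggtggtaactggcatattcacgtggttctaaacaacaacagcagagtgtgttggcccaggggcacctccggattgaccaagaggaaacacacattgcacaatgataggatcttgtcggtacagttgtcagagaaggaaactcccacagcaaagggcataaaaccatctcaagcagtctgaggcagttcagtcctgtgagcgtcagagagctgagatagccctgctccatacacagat
Krt8: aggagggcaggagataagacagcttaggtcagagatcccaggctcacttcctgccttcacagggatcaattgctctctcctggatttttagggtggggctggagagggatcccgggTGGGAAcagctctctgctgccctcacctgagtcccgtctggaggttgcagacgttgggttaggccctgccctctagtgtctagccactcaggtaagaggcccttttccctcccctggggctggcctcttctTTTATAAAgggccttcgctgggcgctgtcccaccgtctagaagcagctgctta
Krt18: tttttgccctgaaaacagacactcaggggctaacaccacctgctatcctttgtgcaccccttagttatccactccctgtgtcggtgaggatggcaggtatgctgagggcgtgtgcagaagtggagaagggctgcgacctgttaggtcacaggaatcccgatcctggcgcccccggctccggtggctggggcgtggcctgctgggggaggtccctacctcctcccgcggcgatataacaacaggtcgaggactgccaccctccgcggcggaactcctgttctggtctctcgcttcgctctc

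The motifs were the TATA box TATAAA, the CCAAT box, the GC box GGGCGG bound by Sp1 and KLF factors, the motif GTTAAT, the Sox motif AACAAT, the RBPJ motif TGGGAA, through which Notch signals act, and the TEAD motif GGAATG, through which YAP acts. The Krt7 window held 4 GC boxes, and at least 1 GGGCGG was present in 35.7% of all 32851 promoter windows. The shares of all windows count those with at least 1 match on either strand, whatever the number of matches. The Krt8 window held TATAAA on both strands at overlapping positions by the start site, and 1 RBPJ motif whose first base lay at position -134, and these motifs were present in 13.6% and 25.6% of all windows. The windows of Krt23 and Krt18 held 0 matches to the 7 motifs. GC content was 66.3% in the Krt7 window, 61.3% in that of Krt18, 58.0% in that of Krt8 and 53.0% in that of Krt23, against a median of 52.7% over all windows. These matches describe the letters in the windows and carry no measure of binding.

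The biliary keratins fell with age, while the keratins shared with hepatocytes were not called. Krt19, the keratin used most widely as a bile duct marker, stood at 2.2 FPKM in young and 0.489 FPKM in adult liver. Its young level was 4.49-fold the adult level, with a deposited log2 fold of -2.17, a test score of -3.53 and q = 0.00189 in the authors' deposited table. Krt7, its usual type II partner, stood at 1.40 and 0.469 FPKM, 2.98-fold higher in young liver, with q = 0.0231 in the authors' deposited table. Krt23, a type I keratin found in biliary epithelium and raised in injured liver, stood at 1.08 and 0.375 FPKM, 2.88-fold higher in young liver, with q = 0.00189 in the authors' deposited table. The q-value of 0.00189 is the smallest in that table and is shared by 554 genes, so Krt19 and Krt23 cannot be ranked among them. Added up, the 3 biliary keratins went from 4.67 to 1.33 FPKM, or 28.5% of the young sum. Among the 16290 tested genes, 259 had a lower deposited log2 fold than Krt19, 427 a lower one than Krt7 and 451 a lower one than Krt23. Any tested gene listed above 0 in young and at 0 in adult liver counts as lower there. With 1 added to each FPKM before the fold, the counts were 186, 396 and 507, so these ranks move with the scale.

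In the hepatocyte keratin pair, levels at both ages were close. Krt8 stood at 108 FPKM in young and 117 FPKM in adult liver, with q = 0.947 in the authors' deposited table. Krt18, its partner, stood at 98.5 and 99.5 FPKM, with q = 0.997 in the authors' deposited table. The FPKM ratio of Krt8 to Krt18 was 1.10 in young and 1.17 in adult liver. The FPKM ratio of Krt8 to Krt19, in contrast, was 49.3 in young and 239 in adult liver. Whether Krt19, Krt7 and Krt23 differed from Krt8 and Krt18 in their age difference was not tested, since the deposited table holds no values per library.

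**Figure D1:**
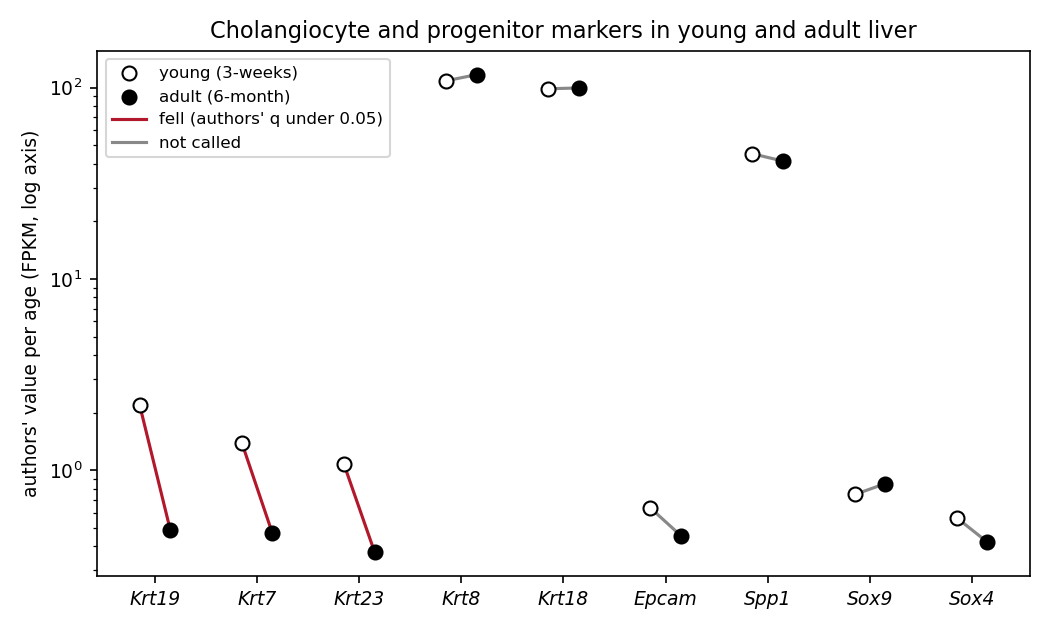
FPKM of the 9 markers at each age, 1 open point for young and 1 filled point for adult liver, on a log axis; each point is the authors' single value for 3 libraries, so there are no error bars. Krt19, Krt7 and Krt23 go from between 1.08 and 2.2 FPKM to between 0.375 and 0.489 FPKM, while Krt8 and Krt18 stay near 100 FPKM.

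The surface and secreted markers were not called. Epcam, an adhesion molecule of cholangiocytes and progenitor cells, spans 87635979 to 87651106 on the plus strand of chromosome 17. It stood at 0.637 FPKM in young and 0.455 FPKM in adult liver, with a log2 fold of -0.48 and q = 0.605 in the authors' deposited table. Spp1, which encodes the secreted phosphoprotein osteopontin, spans 104435118 to 104441050 on the plus strand of chromosome 5. Its levels were 45.1 and 41.3 FPKM, with a log2 fold of -0.13 and q = 0.92 in the authors' deposited table. Spp1 thus stood 70.8-fold above Epcam in young and 90.7-fold above it in adult liver on the FPKM scale. Spp1 is also made by macrophages. Of 16 tested macrophage markers 5 rose (31.25%) and 0 fell, against 3.74% and 3.08% of all tested genes. In adult liver 12 of the 16 were higher and 4 lower. Those that rose included Gpnmb, a gene of low level, from 0.0257 to 0.469 FPKM, and Marco, from 13.8 to 25.5 FPKM. The lower ones included Clec4f, picked with its levels known, which stood at 79.6 and 57.7 FPKM and was not called. The summed level of the macrophage markers was 486 FPKM in young and 589 FPKM in adult liver, and its part in the Spp1 values was not tested.

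The transcription factors were not called either, and they differed in direction from each other. Sox9, which marks cholangiocytes and some periportal hepatocytes, spans 112782224 to 112787760 on the plus strand of chromosome 11 in 3 exons. It stood at 0.747 FPKM in young and 0.851 FPKM in adult liver, with a log2 fold of 0.19 and q = 0.927 in the authors' deposited table. Sox4, which acts with Sox9 in bile duct development in the mouse, is a gene of 1 exon that spans 28948919 to 28953713 on the minus strand of chromosome 13. It stood at 0.565 and 0.421 FPKM, with a log2 fold of -0.42 and q = 0.582 in the authors' deposited table. The noncoding gene Gm26735 overlaps Sox4 on the opposite strand, and the strand setting used in counting was not stated in the sources used here; its adult level was 0.00567 FPKM. The sum of Epcam, Sox9 and Sox4 went from 1.95 to 1.73 FPKM, or 88.6% of the young sum.

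Of the 9 markers, 3 fell, 0 rose and 6 were not called, and at an unadjusted p under 0.05 in the authors' deposited table from Cuffdiff the counts were also 3 lower and 0 higher. Of all tested genes, 3.08% fell and 3.74% rose, while 7.43% were lower and 8.47% higher at an unadjusted p under 0.05 in the authors' deposited table. The share that fell was 3.28% among genes with a mean of both ages of at least 1 FPKM. It was 3.53% among the 4254 genes with a mean of 0.25 to 2 FPKM, a range chosen after the values were seen to hold the 6 markers of low level. The markers were picked with these results known, so the count is a description of the 9 genes. The median log2 fold of the 9, computed on FPKM + 1, was -0.14 against 0.00169 over all tested genes. This scale shrinks the change of genes with low FPKM: the fold of Krt19 was -1.10 on it and -2.17 in the authors' deposited table.

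**Figure D2:**
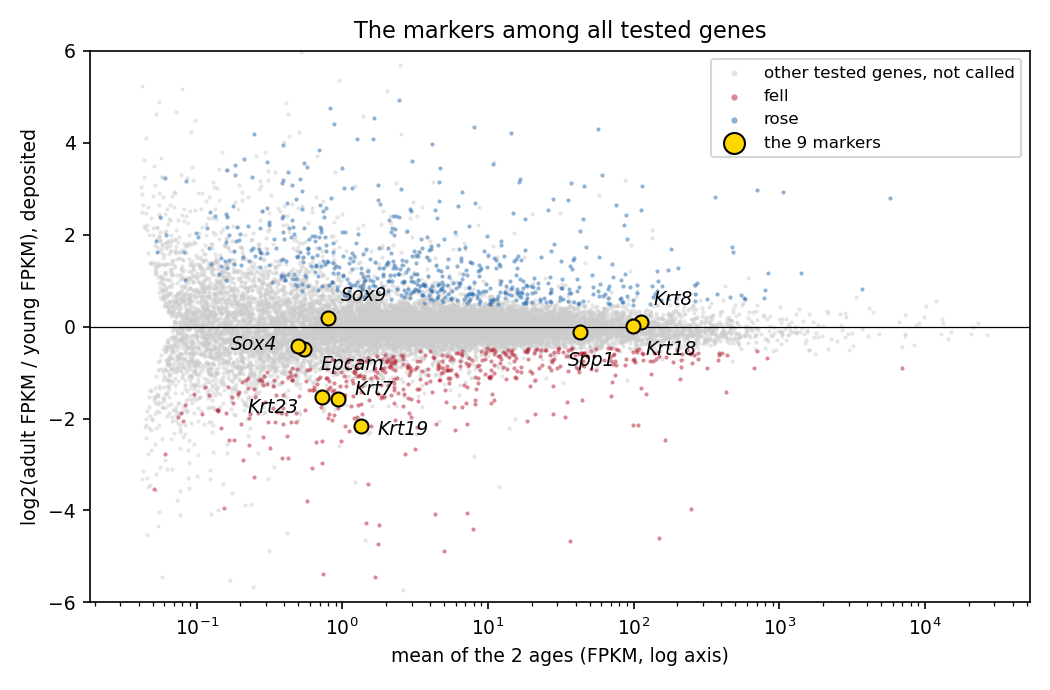
Deposited log2 ratio of adult to young FPKM (vertical axis) against the mean FPKM of both ages (horizontal log axis) for the tested genes above 0 at both ages, with the 9 markers in yellow; 321 genes at 0 at 1 age are not drawn and 48 lie beyond the axis limit of 6. Krt19, Krt7 and Krt23 lie among the fallen genes at a mean of 0.727 to 1.34 FPKM, while Epcam, Sox4 and Sox9, at a mean of 0.493 to 0.799 FPKM, lie among those not called.

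The sizes of called falls differed with level. Among the 1371 tested genes with a mean of 0.5 to 1 FPKM, the range of Krt7, Krt23, Epcam and Sox9, the smallest log2 fold of a called fall was 0.70 in size in the authors' deposited table. The log2 fold of Epcam, -0.48, was smaller than that in size. Sox4, at -0.42, was likewise under the smallest called fall of 0.91 in size among genes of 0.25 to 0.5 FPKM in the authors' deposited table. For genes of 100 FPKM or more, the range of Krt8, falls of 0.48 in size were called in the authors' deposited table. These sizes are no detection limit, since depth and spread per gene are unknown, and a missing call does not show that the levels of Epcam or Sox4 were equal at both ages.

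**Figure D3:**
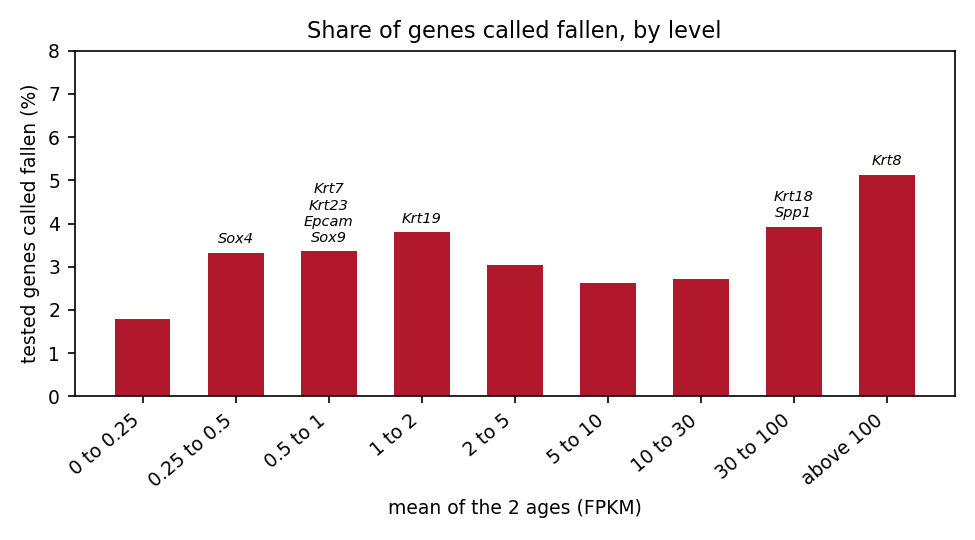
Share of tested genes called fallen (percent, bars) in 9 ranges of mean FPKM, with the markers written above the range they fall in. The share is 3.36% in the range of Krt7, Krt23, Epcam and Sox9, 3.80% in that of Krt19 and 5.13% in that of Krt8.

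The order of the markers by FPKM changed below the most abundant 3. In both ages Krt8 was highest, followed by Krt18 and Spp1. In young liver the 3 biliary keratins came next, in the order Krt19, Krt7 and Krt23, followed by Sox9, Epcam and Sox4. In adult liver Sox9 took rank 4 ahead of Krt19, Krt7, Epcam and Sox4, and Krt23 was at rank 9. The adult levels of the 6 lower markers lay between 0.375 and 0.851 FPKM, and without a spread per age no neighbours in this order can be called different. The FPKM ratio of Krt19 to Sox9 was 2.94 in young and 0.575 in adult liver.

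Other keratins had low FPKM values. Of 51 genes with a keratin symbol, 29 were listed at 0 at both ages and 8 were tested. A listed 0 is not always a measure of absence in this table: Alb, the gene of albumin and among the most abundant transcripts of hepatocytes, is listed at 0 at both ages with the authors' status LOWDATA. The 29 keratins listed at 0 have the status NOTEST instead, so the case of Alb does not settle what their 0 means. The 5 keratin markers gave 99.6% of the summed keratin FPKM in young and 99.7% in adult liver. The other tested keratins were Krt10, at 0.518 and 0.341 FPKM, Krt80, at 0.0802 and 0.142 FPKM, and Krt222, at 0.0771 and 0.00779 FPKM, and they were not called. No other tested gene started between Krt23 and Krt19, which are 647672 bases apart, or between Krt7 and Krt8, which are 566397 bases apart. Outside the markers themselves, 12 genes were the nearest tested neighbours, and 0 of these were called, while 1 had an unadjusted p under 0.05 in the authors' deposited table from Cuffdiff. Of all tested genes, 3.08% fell and 3.74% rose, and 7.43% were lower and 8.47% higher at that unadjusted p. Counts of 0 and 1 among 12 genes thus do not set the neighbours apart. Eif1, the neighbour of Krt19 that encodes a translation initiation factor, stood at 226 and 235 FPKM.

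The Sox family showed 0 called genes of 11 tested, and 0 at an unadjusted p under 0.05 in the authors' deposited table from Cuffdiff. With 3.08% of all tested genes fallen and 3.74% risen, a count of 0 among 11 genes does not set the family apart. Of 26 genes with a Sox symbol, 15 were not tested and 8 of the family were listed at 0 at both ages. The match by symbol also took in the tested Sox6os and Sox5os4 and, among others, the untested Sox5it and Sox5os1. These counts are therefore not counts of transcription factors alone. Among the genes above Sox9 and Sox4 in FPKM were Sox5, at 3.68 and 4.74 FPKM, the endothelial factor Sox18, at 2.02 and 1.44 FPKM, Sox6, at 1.52 and 1.73 FPKM, and Sox13, at 1.39 and 1.51 FPKM. Sox6os, an antisense RNA whose symbol matches the family, was at 1.10 and 1.08 FPKM.

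Of 59 other genes with known expression or roles in bile ducts, 47 were tested. Of these, 7 fell (14.9%) and 3 rose (6.38%), against 3.08% and 3.74% of all tested genes. This list was drawn up with earlier results of these data known, and many of its genes are also expressed by hepatocytes. Its median log2 fold on FPKM + 1 was -0.14 against 0.00169 over all tested genes. In adult liver 32 of the 47 were lower, against 8088 of all 16290 tested genes. The medians of the hepatocyte (-0.21), stellate cell (-0.24), endothelial (-0.25), mesothelial (-0.49) and proliferation (-0.51) lists were lower than the biliary one. Those of the macrophage (0.32), progenitor (-0.06), Notch (-0.03) and Hippo-YAP (-0.00394) lists were higher. Aqp8, a water channel of the canalicular membrane of hepatocytes and of cholangiocytes, fell from 176 to 85.6 FPKM. Cdh1, the epithelial adhesion protein E-cadherin, fell from 14.1 to 6.49 FPKM. Slc10a2, the apical bile acid transporter by which cholangiocytes take bile acids back, rose from 11.4 to 20.1 FPKM, and Pigr, which carries immunoglobulin A into bile, rose from 184 to 343 FPKM. Further called genes of the list were named after their values were seen. Prom1, a surface marker of progenitor cells, fell from 0.648 to 0.174 FPKM, Bicc1, an RNA-binding protein needed for normal bile ducts and kidney tubules, from 1.03 to 0.544 FPKM, and Pkhd1, the gene of fibrocystin in primary cilia, from 1.04 to 0.644 FPKM. The collagen receptor Ddr1 fell from 0.637 to 0.309 FPKM. The transcription factor Onecut2 rose from 3.94 to 6.14 FPKM.

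Other biliary genes were not called or not tested, and their values are given as levels. Cftr, the chloride channel of the cholangiocyte apical membrane, was at 0.0707 and 0.0697 FPKM. Tspan8 was at 0.741 and 0.802 FPKM, and Cldn7, a tight junction protein, at 0.462 and 0.257 FPKM, both not called. Of the 12 biliary genes that the authors did not test, the secretin receptor Sctr was at 0.0130 and 0.0141 FPKM and the claudin Cldn4 at 0.0634 and 0.0374 FPKM. These 5 genes were singled out after their values were seen.

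**Figure D4:**
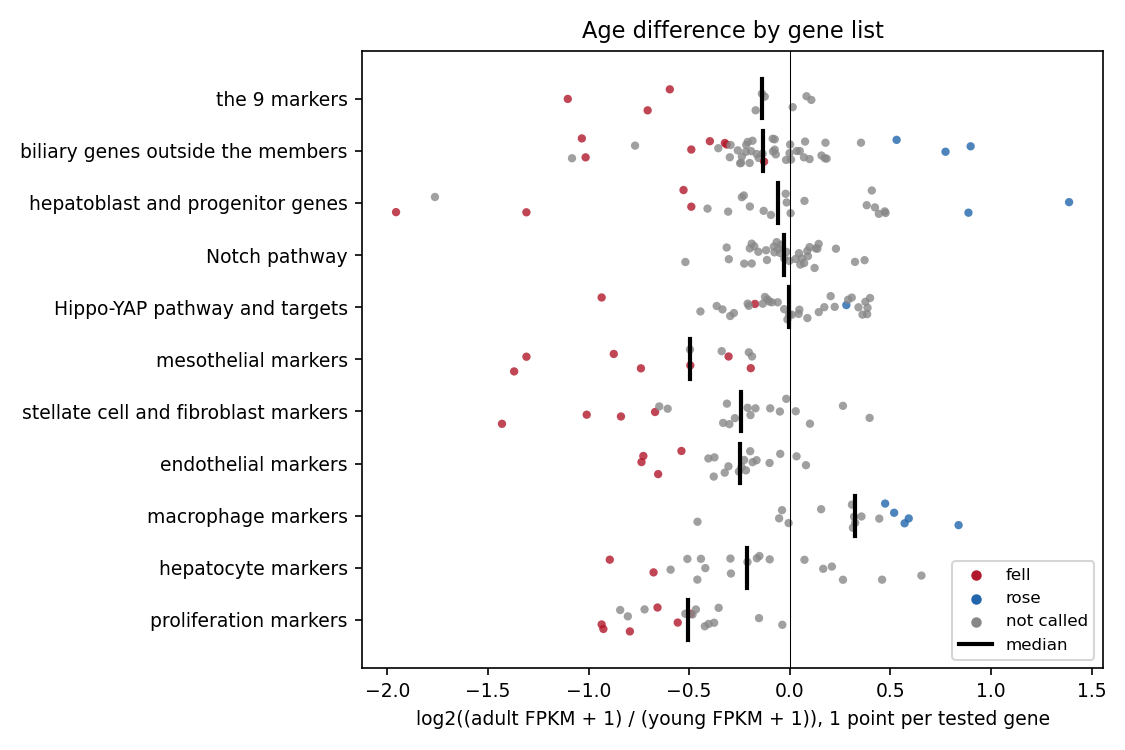
Log2 ratio of adult to young FPKM, each with 1 added, for every tested gene of the 9 markers and of 10 other lists (1 point per gene, a black bar at the list median, red fell, blue rose, grey not called). The median is -0.14 for the markers, -0.14 for the other biliary genes, -0.49 for the mesothelial markers and 0.32 for the macrophage markers. It is -0.21 for hepatocyte, -0.24 for stellate cell and fibroblast, -0.25 for endothelial and -0.51 for proliferation markers. For the progenitor, Notch and Hippo-YAP lists it is -0.06, -0.03 and -0.00394.

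Markers of mesothelium fell together with the biliary keratins. Of 13 listed, 11 were tested, 7 fell (63.6%) and 0 rose, against 3.08% and 3.74% of all tested genes. At an unadjusted p under 0.05 in the authors' deposited table from Cuffdiff 8 were lower and 0 higher, against 7.43% and 8.47% of all tested genes. All 11 tested were lower in adult liver, and the summed level of the list was 18.9 FPKM in young and 6.64 FPKM in adult liver, a ratio of 2.84. Mesothelin, Msln, went from 4.69 to 1.20 FPKM, and the uroplakins Upk3b and Upk1b from 4.49 to 1.22 and from 1.45 to 0.465 FPKM. Gpm6a, a membrane glycoprotein, went from 3.24 to 1.31 FPKM. The adult levels of the 7 that fell were 22.9% to 40.5% of their young levels, and those of the 4 not called 50.3% to 57.1%. Those of Krt19, Krt7 and Krt23 were 22.2%, 33.6% and 34.8%. The falls called at such low levels were large ones, so the ranges of called genes are partly set by the calls. None of the 13 mesothelial genes was at 0 at both ages. Mesothelium carries Krt19 and Krt7 too, and its part in their values was not tested.

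**Figure D5:**
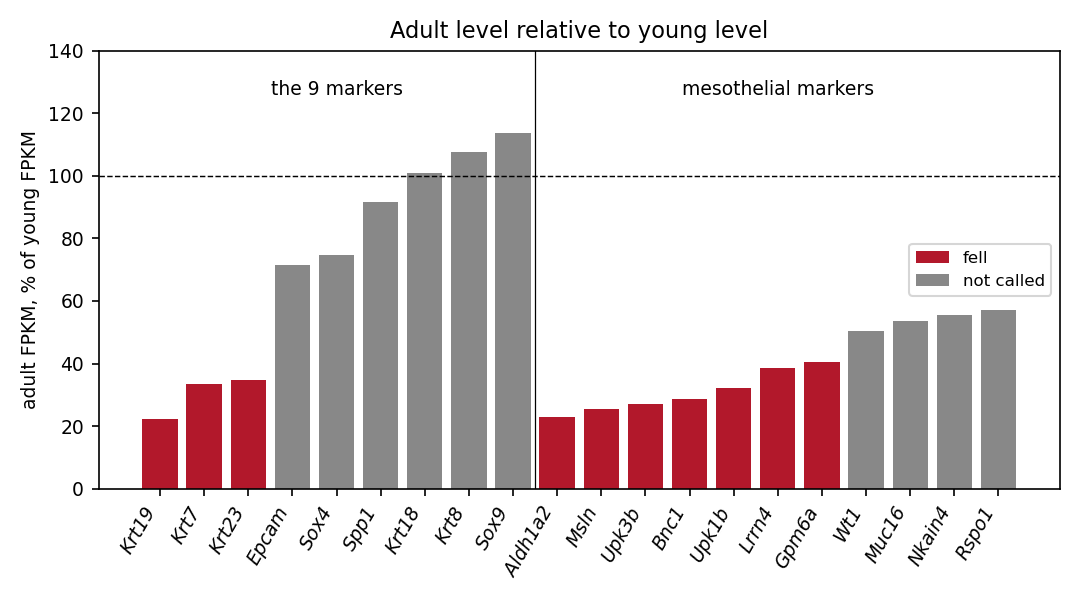
Adult FPKM as a percentage of young FPKM (bars, dashed line at 100%) for the 9 markers and the 11 tested mesothelial markers, in red where the gene fell and in grey where it was not called. Krt19, Krt7 and Krt23 are at 22.2% to 34.8% and the mesothelial markers at 22.9% to 57.1%, while Epcam is at 71.5% and Sox9 at 114%.

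Genes of hepatoblasts and progenitor cells went both ways. Of 31 listed, 24 were tested, 4 fell (16.7%) and 2 rose (8.33%), against 3.08% and 3.74% of all tested genes. H19, an imprinted RNA that codes for no protein, fell from 3.37 to 0.126 FPKM and the proteoglycan Gpc3, abundant in fetal liver, from 3.71 to 0.903 FPKM. Lgr5, a Wnt pathway receptor found on pericentral hepatocytes and on progenitor cells after injury, rose from 1.13 to 2.94 FPKM, and the galectin Lgals3, which macrophages also express, rose from 5.12 to 15.005 FPKM. Afp, the fetal plasma protein, and Prom1 also fell; Afp, named after its values were seen, went from 1.39 to 0.656 FPKM. The TWEAK receptor Tnfrsf12a, which drives progenitor cell growth in the mouse, stood at 5.06 FPKM in young and 7.43 FPKM in adult liver, with q = 0.153 in the authors' deposited table, and is named here after a look at its values.

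Genes of the Notch and Hippo-YAP pathways, which act on Sox9 and the biliary fate, are read against the 3.08% of all tested genes that fell and the 3.74% that rose. Of 39 Notch pathway genes, 35 were tested, 0 fell and 0 rose. At an unadjusted p under 0.05 in the authors' deposited table from Cuffdiff 3 were lower and 2 higher, against 7.43% and 8.47% of all tested genes. The presenilin Psen2 was at 208 and 168 FPKM and Hes6, an inhibitor of Hes1, at 42.4 and 36.8 FPKM. Jag1, the ligand that portal mesenchyme presents to biliary precursors, was at 0.667 and 0.774 FPKM, its receptor Notch2 at 2.99 and 3.07 FPKM, and the target gene Hes1 at 6.68 and 4.36 FPKM with q = 0.113 in the authors' deposited table; these were singled out after their values were seen. Of 37 genes of the Hippo-YAP pathway and its targets, 35 were tested, 2 fell (5.71%) and 1 rose (2.86%). Of these 35, 7 were lower and 5 higher at an unadjusted p under 0.05 in the authors' deposited table from Cuffdiff. The shares of all tested genes were 7.43% and 8.47%. Birc5, which is also a cell division gene, fell from 6.34 to 2.84 FPKM and the growth factor Tgfb2 from 0.233 to 0.0935 FPKM, while the membrane repair gene Myof rose from 0.346 to 0.635 FPKM. The coactivator Yap1 was at 15.6 and 17.3 FPKM and is named here after a look at its values.

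Markers of other liver cells and of cell division differed with age beside the biliary keratins. The counts that follow stand against 3.08% of all tested genes fallen and 3.74% risen. All 18 proliferation genes were tested and 6 fell, with a summed level of 111 FPKM in young and 73.2 FPKM in adult liver; Mcm6, of the replicative helicase, went from 7.52 to 3.48 FPKM. Of 20 stellate cell and fibroblast markers 4 fell (20%) and 0 rose, with the collagen Col3a1 falling from 16.5 to 5.48 FPKM. In adult liver 16 of the 20 were lower and 4 higher. Lrat, at 6.34 and 4.91 FPKM, Reln, at 19.6 and 18.3 FPKM, and Hgf, at 3.06 and 3.87 FPKM, were not called. These stellate cell markers were named after their values were seen. Of 20 endothelial markers 4 fell and 0 rose, and Lyve1 fell from 6.44 to 3.47 FPKM. All 18 proliferation genes, 18 of the 20 endothelial markers and 13 of 19 tested hepatocyte markers were lower in adult liver. Hepatocyte markers, with Alb at its listed 0 and without Tf, which was not used here, were at 60372 FPKM in sum in young and 50009 FPKM in adult liver, and of 19 tested 2 fell, Ahsg, from 9035 to 4860 FPKM, and Ass1, from 1019 to 637 FPKM. Of 12 pancreatic acinar markers 2 were tested and 0 called, Cela1 at 21.9 and 20.9 FPKM and Cela2a at 1.16 and 0.803 FPKM. The other 10 were not tested, and 5 of them were listed at 0 at both ages. Among these 10 were Cpa1, at 0.00495 and 0.0131 FPKM, Ctrb1, at 0.00879 and 0.00953 FPKM, and Pnlip, at 0.00419 and 0.00452 FPKM. Cpa1, Ctrb1 and Pnlip were named after their values were seen. The part of these cell types in the values of the 9 markers was not tested.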

How the data were processed

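Liver RNA libraries (TruSeq RNA kit, Illumina NextSeq sequencer, RNA integrity number of 8 or more, about 30000000 reads on average per the labels' protocols) were processed by the submitters. Tools named in the submitters' processing notes are Cufflinks 2.2.1, TopHat2 2.0.11 and Cuffdiff, with the build GRCm38. Annotation, library normalization and strand setting were not given in the sources used. The authors deposited 1 FPKM value per gene and age, with the 3 libraries of each age already combined. Per the file headers, the authors' deposited table also holds a log2 fold without pseudocount, a test score, and p-values and q-values. That q-value across all genes is the test used here; no count or library value was used, so depth per gene is unknown.

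Genes with the authors' status OK (16290) were used with no minimum on FPKM, because a minimum met at 1 age fixes the direction of a gene below it at the other. A called gene had a q-value under 0.05. Folds were also computed as log2((adult FPKM + 1)/(young FPKM + 1)) in Python 3.11.15 with pandas 2.3.3; the functions were tested on simulated data. Keratin and Sox families were taken by symbol. Named from other lists were up to 4 called genes with the largest fold, or the 2 highest where 0 were called; others are marked. The nearest tested genes by start were the neighbours. GENCODE M21 gave exon counts, and RefSeq (GRCm38.p6) gave promoters; windows for Krt19 and Sox9 were not used here. The markers and lists were chosen with earlier results of these data known. Alternatives were other q thresholds, adjustments, FPKM minimums, pseudocounts and scalings. Some genes counted in the lists are not reported here by name.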

Additional observations from a re-analysis of the deposited data

How the results depend on the processing

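Leaving out libraries was not possible, since each age has 1 value per gene. No paired analysis was possible because the columns carry no library and so no replicate number. The count of 3 fallen markers was 2 at a q-value under 0.01, where Krt7 was no longer called, and 3 at 0.1 and with Benjamini-Hochberg adjustment over all tested genes. A minimum of 1 FPKM at either age also left 3, but Krt19, Krt7 and Krt23 pass it through young liver alone, which fixes their direction, so that count is no support. With a minimum on the mean of both ages of 1 FPKM it was 1 of 4 markers left, Krt19, and with 5 FPKM it was 0 of 3, because these minimums remove Krt7 and Krt23 and then Krt19. The adjusted p of Krt7 was 0.0179 with Benjamini-Hochberg adjustment over all tested genes, against 0.0231. The count of risen markers was 0 in all of these. Of all genes, 304 fell at a q-value under 0.01 and 240 with a minimum mean of 5 FPKM, against 501, and 262 rose with that minimum, against 610. The median log2 fold of the markers was -0.35 with a pseudocount of 0.1 and -0.42 with none, and it turned to 0.0142 with a minimum mean of 5 FPKM, which leaves Krt8, Krt18 and Spp1. Scaling both ages to the same total, with or without the 100 highest genes, or centring on the median gene kept the direction of each marker, with Krt19 between -1.11 and -1.10 and Krt18 between 0.00702 and 0.0259. In the other lists, the 7 fallen biliary genes were 4 at a q-value under 0.01. They were 2 of 26 tested with a minimum mean of 1 FPKM and 2 of 18 with 5 FPKM. The 3 biliary genes that rose stayed at 3 in each of these, so with either minimum more of them rose than fell. Of all genes, 404 of 11390 fell and 466 rose with a minimum mean of 1 FPKM. The 7 fallen mesothelial markers were 3 of 4 with a minimum mean of 1 FPKM.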
